A study of Mus musculus with 12 samples.

Results

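The genes described here are the Wnt ligands, their receptors, secreted antagonists and intracellular transducers in mouse neural stem/progenitor cells (NPCs). They were chosen by symbol: every listed gene of the Wnt, Fzd (Frizzled), Sfrp and Dkk families, together with Lrp5, Lrp6, Axin1, Axin2, Ctnnb1, Tcf7, Tcf7l1, Tcf7l2, Lef1, Nkd1, Rnf43, Znrf3, Lgr4, Lgr5 and Wif1. This gave 52 members of 24108 listed genes, of which 35 had enough counts to be tested and 17 did not, among 13745 genes tested in all.

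Expression was profiled by bulk RNA-seq of NPCs from the subventricular zone (SVZ), a neurogenic niche lining the lateral ventricle, of C57BL/6 mice at postnatal day 9 to 12. The 4 groups, each of 3 libraries, were co-cultured p53-/- cells, p53-/- cells alone, co-cultured p53+/+ cells and p53+/+ cells alone. The p53-/- NPCs were p53loxP/loxP cells given an adenovirus that carries iCre under the CMV promoter, and the p53+/+ cells are labelled wild type, although the methods name an empty CMV adenovirus for controls. In co-culture, NPCs sat for 48 h on a monolayer of primary brain microvascular endothelial cells (bmvECs) and were then lifted off by selective trypsinization, whereas NPCs alone grew on laminin, and all groups had EGF and bFGF. The co-culture is used by the study as a model of endothelial contact and quiescence. The libraries come from 3 experiments, named 17_9, 25_9 and 1_10 in the column headers, each with 1 library of each group. Values by library are given below in that order, in CPM, which are read counts relative to the size of the library, scaled by TMM, a normalization for library composition.

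Wnt proteins are secreted, lipid-modified ligands that bind Frizzled receptors. With the co-receptors Lrp5 and Lrp6 they stabilise beta-catenin (Ctnnb1), which is otherwise marked for destruction by a complex built on Axin, and beta-catenin then drives transcription with TCF/LEF factors. Sfrp and Dkk proteins act outside the cell, mostly as antagonists, and Axin2 and Nkd1 are feedback inhibitors that are themselves widely used as readouts of the pathway. In the SVZ, Wnt signals are known to act on the proliferation and fate of neural stem cells.

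Total counts ran between 16509710 and 22245224 per library. Trp53, the targeted gene, had 11.7 to 19.3 CPM in the 6 p53-/- libraries and 61.8 to 109 CPM in the 6 p53+/+ libraries. RNA of endothelial cells was present in co-culture: 20 endothelial markers summed to 121 to 152 CPM in p53-/- co-culture against 20.2 to 30.6 CPM in p53-/- NPCs alone, and to 135 to 220 CPM in p53+/+ co-culture against 30.7 to 44.5 CPM in p53+/+ NPCs alone. Of the 18 tested, 17 rose with co-culture in each genotype. Cdh5, the endothelial cadherin, had 18.8 to 25.0 CPM in p53-/- co-culture and 20.0 to 37.2 CPM in p53+/+ co-culture, and at most 0.0993 CPM in NPCs alone. The part of this RNA in the co-culture differences below was not tested, and a change in the number of cells of a type cannot be told apart from a change in RNA per cell. The 9 neural stem and progenitor markers summed to 13210 to 15735 CPM in p53-/- co-culture against 7694 to 8482 CPM in p53-/- NPCs alone, and to 17204 to 24000 CPM in p53+/+ co-culture against 8805 to 10073 CPM in p53+/+ NPCs alone. Gfap, the astrocyte and stem cell filament, had 4853 to 8209 CPM in p53-/- co-culture against 197 to 414 CPM alone, and 8652 to 15515 CPM in p53+/+ co-culture against 411 to 656 CPM alone. Of these 9 markers, only 2 were higher and 2 were lower with co-culture in each genotype. Nes went the other way from Gfap, with 833 to 1168 CPM in p53-/- co-culture against 1417 to 1882 CPM alone. Its p53+/+ values were 835 to 1127 CPM in co-culture against 1726 to 2062 CPM alone. The 5 neuroblast markers summed to 253 to 310 CPM in p53-/- co-culture against 404 to 485 CPM alone, and to 215 to 243 CPM in p53+/+ co-culture against 352 to 391 CPM alone. With co-culture 0 of them were higher and 1 lower in p53-/-, and 1 higher and 2 lower in p53+/+. The 6 oligodendrocyte lineage markers summed to 1268 to 1340 CPM in p53-/- co-culture against 1534 to 2002 CPM alone, and to 1197 to 1450 CPM in p53+/+ co-culture against 1664 to 2151 CPM alone. With co-culture 1 of them was higher and 3 lower in p53-/-, and 3 higher and 3 lower in p53+/+. The part of these neural markers in the co-culture differences was not tested either. Microglia markers summed to at most 1.47 CPM. In the alone libraries of experiment 17_9, the 13 mural and fibroblast markers summed to 1229 CPM (p53-/-) and 693 CPM (p53+/+), against 102 to 158 CPM in the other NPCs alone, and nearly all of it was Acta2 and Tagln. Of the other markers on this list, Cspg4 had 10.6 to 38.3 CPM in p53-/- NPCs alone and 16.5 to 22.0 CPM in p53+/+ NPCs alone. In NPCs alone Col1a1 had at most 5.86 CPM, Pdgfrb 3.28 CPM, Col1a2 1.45 CPM, Col3a1 1.36 CPM and Dcn 0.0969 CPM. Whether mural cells or fibroblasts were present was not tested.

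Levels of different genes were compared per kilobase of exon, as the mean of the 4 groups, with exon lengths of the GENCODE M21 annotation (GRCm38). Among ligands, Wnt7b had 35.6 CPM per kb and Wnt7a 20.2 CPM per kb. These are the ligands that neural progenitors are known to send to brain endothelium. Wnt5a, the classical beta-catenin-independent ligand, had 7.80 CPM per kb and its paralog Wnt5b 4.83 CPM per kb. Wnt9a, Wnt4 and Wnt2b were at 1.02 CPM per kb or less in every group. All 10 Frizzled receptors were tested, with Fzd3 highest at 27.6 CPM per kb and Fzd6 lowest at 1.70 CPM per kb. The co-receptors were close together, at 8.16 (Lrp6) and 6.93 (Lrp5) CPM per kb. Beta-catenin itself, which also serves at adherens junctions, had 205 CPM per kb. Among nuclear partners, Tcf7l1, a repressor in the absence of signal, had 4.70 CPM per kb, Tcf7 3.89 CPM per kb and Tcf7l2 2.33 CPM per kb, while Lef1 had 0.0143 CPM per kb.

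**Figure D1:**
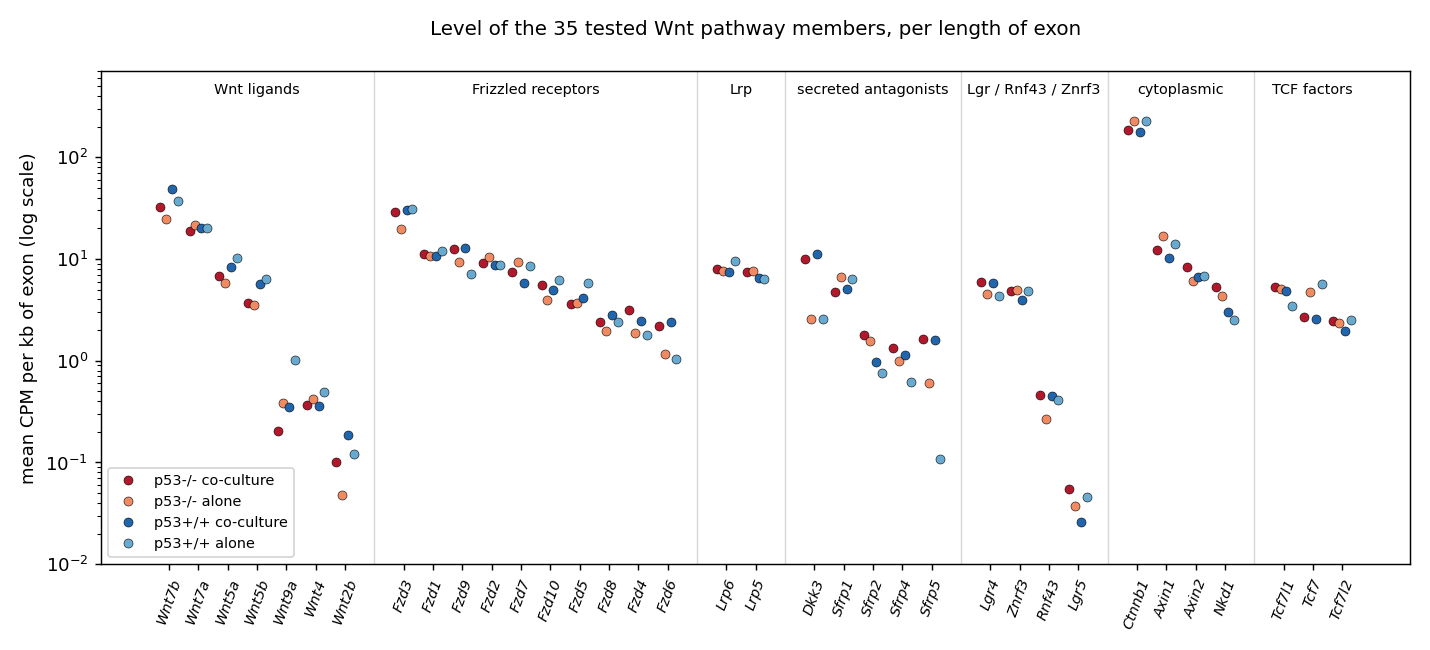
Mean level of each of the 35 tested members in CPM per kilobase of exon (vertical axis, log scale), grouped by role, with 1 point for each of the 4 groups (mean of 3 libraries). Ctnnb1 stands at the top at 205 CPM per kb over the groups, Wnt7b, Fzd3 and Wnt7a follow, and Lgr5, at 0.0411 CPM per kb, is at the bottom.

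The 17 members that were not tested include 12 ligands: Wnt1, Wnt2, Wnt3, Wnt3a, Wnt6, Wnt8a, Wnt8b, Wnt9b, Wnt10a, Wnt10b, Wnt11 and Wnt16. No library held more than 9 counts of any of them. Dkk1, Dkk2, Dkk4 and Wif1, all secreted antagonists, had at most 5 counts in a library, and Dkk4 had 0 in all 12, which allows up to 0.137 to 0.187 CPM depending on the library (3 counts, counting error only). Lef1, a TCF/LEF factor commonly raised by the pathway, had at most 10 counts, and 30 counts over all libraries.

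Co-culture with bmvECs raised the antagonists Dkk3 and Sfrp5, the receptor Fzd6 and the ligand Wnt7b and lowered Tcf7, Axin1 and Ctnnb1, in both genotypes. In p53-/- NPCs 10 of the 35 tested members changed, 6 higher and 4 lower at an adjusted p under 0.05, where 18.8% of all genes tested were higher and 17.0% lower. In p53+/+ NPCs 11 changed, 6 higher and 5 lower, where 21.2% of all genes were higher and 18.3% lower. The shares of the members, 17.1% higher in both genotypes and 11.4% (p53-/-) and 14.3% (p53+/+) lower, were near or under those of all genes. Their median log2 difference was 0.18 in p53-/-, beside -0.01 for all genes, and -0.02 in p53+/+, beside 0.00. With the experiment number of the column headers as a replicate block, the p53+/+ count was 8 higher and 9 lower (all genes: 26.2% higher and 24.1% lower).

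**Figure D2:**
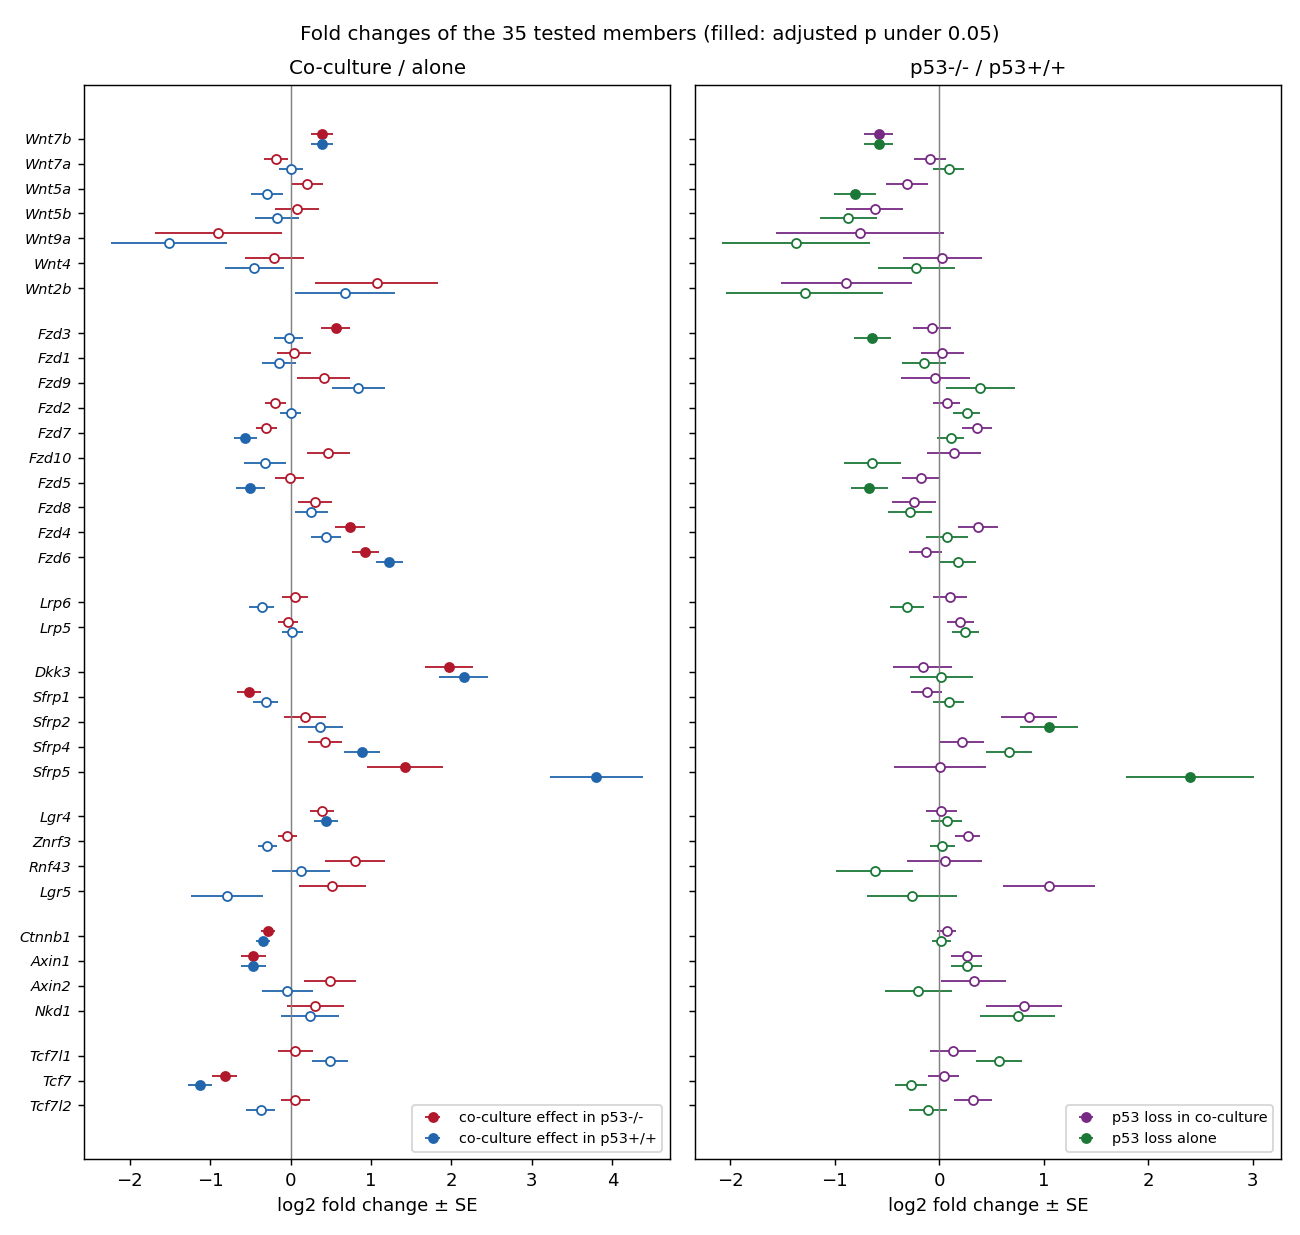
Log2 fold change with its standard error (horizontal axis) for the 35 tested members, ordered by role. The left panel gives co-culture over alone in each genotype and the right panel p53-/- over p53+/+ in each culture, and filled points passed an adjusted p of 0.05. Sfrp5 and Dkk3 lie farthest to the right in the left panel and Tcf7 is the filled point farthest to the left there, at -1.13 in p53+/+.

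Dkk3, a member of the Dickkopf family that differs from Dkk1 in hardly binding Lrp co-receptors, was among the members that rose most. It had 45.1, 30.4 and 26.5 CPM in p53-/- co-culture, against 10.8, 9.75 and 5.49 CPM in p53-/- NPCs alone. The p53+/+ values were 53.7, 28.2 and 32.0 CPM in co-culture, against 10.2, 7.55 and 7.93 CPM alone. The groups did not overlap in either genotype, and the library of experiment 17_9 was the highest in both co-culture groups. The log2 difference was 1.97 ± 0.30 (SE, adjusted p = 0.000441) in p53-/- and 2.15 ± 0.30 (adjusted p = 0.000174) in p53+/+, with n = 3 libraries in each group in edgeR's quasi-likelihood test. Without the libraries of NPCs alone of experiment 17_9 the differences were 2.14 in p53-/- and 2.29 in p53+/+.

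Sfrp5, a secreted Frizzled-related protein that binds Wnts, had the largest difference of the tested members in p53+/+ NPCs. It was at 2.00, 3.92 and 3.31 CPM in p53-/- co-culture, against 0.485, 1.78 and 1.17 CPM in p53-/- NPCs alone. The p53+/+ values were 2.18, 4.46 and 2.48 CPM in co-culture, against 0.0625, 0.348 and 0.203 CPM alone. All co-culture libraries exceeded all libraries of NPCs alone of their genotype, and the p53+/+ libraries alone held 1, 7 and 4 counts. The log2 difference was 1.42 ± 0.47 (adjusted p = 0.0309) in p53-/- and 3.80 ± 0.58 (adjusted p = 0.000312) in p53+/+, n = 3 each by edgeR. The p53-/- call was lost without the p53-/- alone library of 17_9 (log2 1.05) or of 1_10 (1.41), or without the p53-/- co-culture library of 25_9 (1.20) or of 1_10 (1.36), at adjusted p up to 0.111. It was also lost without the libraries of NPCs alone of experiment 17_9 (1.04, adjusted p = 0.0650).

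The other Sfrps moved less. Sfrp4 averaged 5.58 ± 1.04 CPM in p53-/- co-culture and 4.13 ± 0.494 CPM alone (SD, n = 3), which did not pass (log2 0.43, adjusted p = 0.129, edgeR), and 4.81 ± 0.303 against 2.58 ± 0.496 CPM in p53+/+ NPCs, in which it rose (0.89, adjusted p = 0.00669). Sfrp1, the member of this family with the highest level here, went the other way and fell in p53-/- co-culture, to 20.5 ± 1.21 CPM, against 29.4 ± 4.20 CPM alone (log2 -0.52, adjusted p = 0.0193, edgeR, n = 3). That call was lost without the p53-/- alone library of 17_9 (-0.41) or the p53-/- co-culture library of 25_9 (-0.49). In p53+/+ NPCs Sfrp1 had a log2 difference of -0.31 (adjusted p = 0.123), which passed with the replicate block (-0.30, adjusted p = 0.0497). Sfrp2 was at 0.18 in p53-/- and 0.37 in p53+/+ and did not pass in either.

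**Figure D3:**
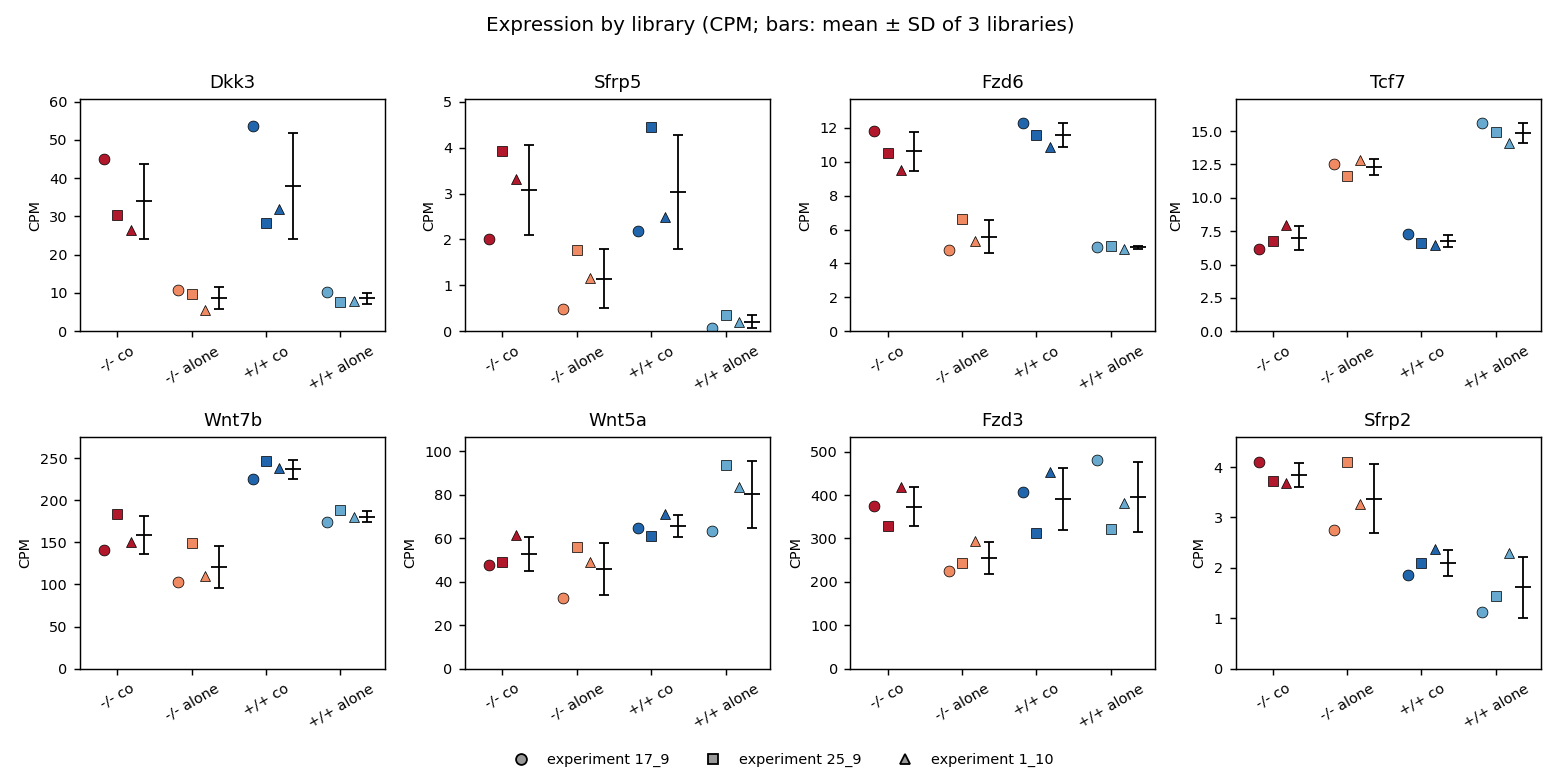
Expression in CPM (vertical axes, from 0) of 8 members in each library, with marker shape giving the experiment and the black bar the mean ± SD of the 3 libraries of a group. In co-culture Dkk3, Sfrp5 and Fzd6 lie above, and Tcf7 below, every library of NPCs alone of the same genotype. Wnt7b is lower in p53-/- than in p53+/+ in both cultures.

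Of the receptors, Fzd6, a Frizzled known for planar cell polarity, rose in both genotypes. It had 11.8, 10.5 and 9.54 CPM in p53-/- co-culture, against 4.80, 6.65 and 5.33 CPM in p53-/- NPCs alone. Its p53+/+ values were 12.3, 11.6 and 10.9 CPM in co-culture, against 5.0, 5.02 and 4.83 CPM alone. The libraries within a group lay close together and the groups did not overlap. The log2 difference was 0.93 ± 0.17 (adjusted p = 0.00134) in p53-/- and 1.23 ± 0.17 (adjusted p = 0.000151) in p53+/+ (edgeR, n = 3 each). Fzd4, the receptor through which Norrin acts on endothelial cells, rose in p53-/- co-culture (21.2 ± 1.83 against 12.7 ± 2.96 CPM, log2 0.74, adjusted p = 0.0104), and had 16.4 ± 2.89 against 12.1 ± 1.47 CPM in p53+/+ (0.44, adjusted p = 0.0878). Fzd9 had a log2 difference of 0.84 in p53+/+ (adjusted p = 0.0610), which passed with the replicate block (0.90, adjusted p = 0.0127). Fzd10 was at 0.47 in p53-/- (adjusted p = 0.189, or 0.0238 with the replicate block) and -0.32 in p53+/+ (adjusted p = 0.362).

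Fzd7 and Fzd5 fell with co-culture in p53+/+ NPCs. Fzd7, which is known to keep progenitors in a Wnt-responsive state in several tissues, had 34.0 ± 3.93 CPM in p53-/- co-culture and 42.0 ± 4.65 CPM alone, a log2 difference of -0.30 (adjusted p = 0.0932) that passed with the replicate block (-0.31, adjusted p = 0.0286). In p53+/+ co-culture it fell to 26.4 ± 3.09 CPM, against 38.9 ± 2.58 CPM alone (log2 -0.56, adjusted p = 0.00599, edgeR, n = 3). Fzd5 had 29.6, 28.9 and 27.0 CPM in p53+/+ co-culture, against 52.2, 37.5 and 31.5 CPM alone (log2 -0.50 ± 0.18, adjusted p = 0.0449). The highest value was the p53+/+ alone library of experiment 17_9, and without it the difference was -0.28 (adjusted p = 0.204). It was also not called without the p53+/+ co-culture library of any experiment, the p53+/+ alone library of 25_9 or the p53-/- co-culture library of 25_9. Fzd1, Fzd2 and Fzd8 were not called in either genotype, with log2 differences of -0.19 to 0.30. Of the co-receptors, Lrp5 was at -0.03 in p53-/- and 0.02 in p53+/+, and Lrp6 at 0.06 in p53-/- and -0.36 in p53+/+, where it passed with the replicate block (adjusted p = 0.0248).

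Fzd3, a receptor needed in mice for axon guidance, rose with co-culture in p53-/- NPCs. It had 374, 329 and 418 CPM in p53-/- co-culture, against 224, 243 and 295 CPM in p53-/- NPCs alone (log2 0.56 ± 0.18, adjusted p = 0.0266, edgeR). In p53+/+ NPCs it had 406, 313 and 454 CPM in co-culture, against 482, 322 and 382 CPM alone (log2 -0.02 ± 0.18, adjusted p = 0.949). The p53-/- groups did not overlap, and the p53-/- alone libraries were the lowest of all 12. That call was lost without the p53-/- alone library of 17_9 (0.47) or 25_9 (0.52), or the p53-/- co-culture library of 17_9 (0.55) or 1_10 (0.46).

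Wnt7b was the 1 ligand called with co-culture by edgeR on all 12 libraries. It had 141, 184 and 150 CPM in p53-/- co-culture, against 103, 149 and 110 CPM in p53-/- NPCs alone. Its p53+/+ values were 225, 247 and 238 CPM in co-culture, against 174, 188 and 180 CPM alone. The groups overlapped in p53-/- and did not in p53+/+, and Wnt7b was higher in co-culture in each of the 3 experiments of both genotypes. The log2 difference was 0.39 ± 0.14 in both (adjusted p = 0.0494 in p53-/- and 0.0473 in p53+/+, edgeR, n = 3 each). Both calls lie just inside the threshold. Of the 15 fits that left out 1 library or 1 whole experiment, the p53-/- call was kept in 1 and the p53+/+ call in 3, with log2 differences of 0.27 to 0.57 in p53-/- and 0.35 to 0.44 in p53+/+. Wnt7a had log2 differences of -0.18 in p53-/- and 0.01 in p53+/+, Wnt5a of 0.20 and -0.29, and Wnt5b of 0.08 and -0.17. Without the libraries of NPCs alone of experiment 17_9, Wnt7b was not called (0.29 in p53-/- and 0.36 in p53+/+, adjusted p = 0.166 and 0.0790) and Wnt5a was lower in p53+/+ co-culture (-0.44, adjusted p = 0.0261). Of the low ligands, Wnt2b was at 1.07 in p53-/- and 0.68 in p53+/+, Wnt4 at -0.20 and -0.45, and Wnt9a at -0.90 and -1.51, and with all libraries none of these 6 ligands passed. DESeq2 called Wnt8b, which edgeR's filter left out, higher in p53-/- co-culture (adjusted p = 0.0428), on 3, 9 and 2 counts in p53-/- co-culture against 0, 0 and 1 counts in p53-/- NPCs alone.

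The R-spondin receptor Lgr4, which raises Wnt sensitivity by holding back Znrf3 and Rnf43, had 34.7 ± 2.25 CPM in p53-/- co-culture and 26.4 ± 2.22 CPM alone (log2 0.39, adjusted p = 0.0548, or 0.40 and 0.00828 with the replicate block). It rose in p53+/+ co-culture, with 34.3 ± 5.06 CPM against 25.3 ± 4.22 CPM alone (0.44, adjusted p = 0.0320, edgeR, n = 3). That call was lost without the p53+/+ alone library of 25_9 (0.35) or 1_10 (0.40), or the p53+/+ co-culture library of 17_9 (0.35) or 1_10 (0.44). Znrf3 and Rnf43 are ubiquitin ligases that remove Frizzleds from the membrane. Rnf43 was at 0.80 in p53-/- (adjusted p = 0.108, or 0.0331 with the replicate block) and 0.13 in p53+/+, and Znrf3 at -0.04 in p53-/- and -0.29 in p53+/+ (adjusted p = 0.0693, or 0.0416 with the replicate block). Lgr5, at 0.163 to 0.651 CPM, did not pass.

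Inside the cell, beta-catenin and Axin1, the scaffold of its destruction complex, were both lower in co-culture. Ctnnb1 had 973 ± 19.9 CPM in p53-/- co-culture and 1183 ± 16.7 CPM alone, and 926 ± 22.0 CPM in p53+/+ co-culture and 1168 ± 20.5 CPM alone (log2 -0.28 in p53-/- and -0.34 in p53+/+, adjusted p = 0.0270 and 0.0101, edgeR, n = 3 each). Axin1 had 46.6 ± 5.51 against 64.1 ± 5.60 CPM in p53-/- and 38.9 ± 2.04 against 53.4 ± 10.4 CPM in p53+/+ (log2 -0.46 in both, adjusted p = 0.0286 and 0.0267). All libraries in co-culture were below those of NPCs alone of the same genotype for both genes. These changes are small, and of 15 leave-out fits the Axin1 call was kept in 7 (p53-/-) and 8 (p53+/+) and the Ctnnb1 call in 6 (p53-/-) and 13 (p53+/+). Axin2, at 0.49 in p53-/- and -0.04 in p53+/+, and Nkd1, at 0.31 and 0.24, did not pass. DESeq2 with the replicate block called Axin2 higher in p53-/- co-culture (0.58, adjusted p = 0.0406), where edgeR with the block did not (0.57, adjusted p = 0.0787).

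Tcf7, a DNA-binding partner of beta-catenin, was the TCF factor that fell. It had 6.16, 6.78 and 7.97 CPM in p53-/- co-culture, against 12.5, 11.6 and 12.8 CPM in p53-/- NPCs alone. Its p53+/+ values were 7.30, 6.64 and 6.43 CPM in co-culture, against 15.6, 14.9 and 14.1 CPM alone. Co-culture libraries were all below 8 CPM and libraries of NPCs alone all above 11 CPM. The log2 difference was -0.82 ± 0.15 (adjusted p = 0.00137) in p53-/- and -1.13 ± 0.15 (adjusted p = 0.000113) in p53+/+. Tcf7l1 was at 0.49 and Tcf7l2 at -0.37 in p53+/+, and each passed with the replicate block (adjusted p = 0.00988 and 0.0474). The calls of Dkk3, Fzd6 and Tcf7 in both genotypes, and of Sfrp5 in p53+/+, were kept in all 15 leave-out fits.

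Loss of p53 changed 6 of 35 tested members in NPCs alone, 2 higher and 4 lower, beside 2.02% higher and 4.27% lower over all genes. The co-cultured NPCs had 1 changed member, which was lower, beside 3.24% higher and 4.93% lower over all genes. The median log2 difference of the members was 0.02 alone and 0.04 in co-culture, beside 0.05 and 0.02 for all genes. With the replicate block the counts were 4 higher and 6 lower alone (all genes: 7.25% and 9.33%) and 3 higher and 2 lower in co-culture (9.99% and 10.9%). These comparisons use the same libraries as those of co-culture, so a high or low library of NPCs alone enters both. Of 4 ependymal markers, p53 loss lowered 3 in NPCs alone and 2 in co-culture, and of 5 neuroblast markers it raised 2 in each. Of 6 oligodendrocyte lineage markers it raised 1 alone, and raised 1 and lowered 1 in co-culture. Of 8 tested mural and fibroblast markers it raised 2 alone and changed 0 in co-culture. The part of all these markers in the differences below was not tested.

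Wnt7b was lower with p53 loss in both cultures. Its values, given above, were 103 to 149 CPM in p53-/- NPCs alone against 174 to 188 CPM in p53+/+ NPCs alone, and 141 to 184 CPM in p53-/- co-culture against 225 to 247 CPM in p53+/+ co-culture, with no overlap in either. The log2 difference was -0.58 ± 0.14 in each culture (edgeR, n = 3 each, adjusted p = 0.0317 for NPCs alone and 0.0277 for co-culture), a level 1.50-fold lower alone and 1.49-fold lower in co-culture. The call in NPCs alone was lost without the p53+/+ alone library of any experiment, or the p53-/- alone library of 17_9 or 1_10 (log2 -0.61 to -0.48). The call in co-culture was lost without the p53+/+ co-culture library of 17_9 or 25_9, or the p53-/- co-culture library of 17_9 or 1_10 (-0.63 to -0.50). Without the libraries of NPCs alone of experiment 17_9 the difference alone was -0.51 (adjusted p = 0.147).

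Wnt5a had 32.4, 56.0 and 48.9 CPM in p53-/- NPCs alone, against 63.1, 93.6 and 83.6 CPM in p53+/+ NPCs alone (log2 -0.81 ± 0.20, adjusted p = 0.0296, edgeR). In co-culture it had 47.8, 48.9 and 61.6 CPM in p53-/- NPCs, against 64.5, 61.0 and 70.9 CPM in p53+/+ NPCs (-0.31 ± 0.20, adjusted p = 0.348). The groups were separate in NPCs alone and overlapped in co-culture. The call was lost without the p53-/- alone library of 17_9 (-0.61) or 1_10 (-0.89), or the p53+/+ alone library of 25_9 (-0.68) or 1_10 (-0.77). Its paralog Wnt5b had 9.32 ± 2.11 CPM in p53-/- NPCs alone and 17.0 ± 4.77 CPM in p53+/+ NPCs alone (-0.87, adjusted p = 0.0768), and passed with the replicate block in both cultures (-0.86 alone and -0.62 co-cultured, adjusted p = 0.00349 and 0.0152). Wnt7a, at 0.09 alone and -0.09 in co-culture, did not pass.

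Sfrp5 and Sfrp2 were the members that rose with p53 loss in NPCs alone. Sfrp5 had 0.485, 1.78 and 1.17 CPM in p53-/- NPCs alone, against 0.0625, 0.348 and 0.203 CPM in p53+/+ NPCs alone (log2 2.40 ± 0.61, adjusted p = 0.0371, edgeR). In co-culture it was at 3.08 ± 0.978 CPM in p53-/- and 3.04 ± 1.24 CPM in p53+/+ (SD, n = 3, log2 0.01 ± 0.44). The alone groups did not overlap. The call was lost without the p53+/+ alone library of any experiment or the p53-/- alone library of 25_9 or 1_10 (log2 1.86 to 2.99).

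Sfrp2, another secreted Wnt-binding protein, had 2.76, 4.10 and 3.27 CPM in p53-/- NPCs alone, against 1.12, 1.44 and 2.29 CPM in p53+/+ NPCs alone (log2 1.05 ± 0.28, adjusted p = 0.0409, edgeR). In co-culture it had 4.11, 3.72 and 3.69 CPM in p53-/- NPCs, against 1.85, 2.09 and 2.37 CPM in p53+/+ NPCs (0.86 ± 0.27, adjusted p = 0.0662, or 0.88 and 0.0215 with the replicate block). All p53-/- libraries exceeded all p53+/+ libraries in both cultures. The call in NPCs alone was kept in 2 of 15 leave-out fits, with log2 differences of 0.81 to 1.39. The 250 bases before the annotated start of each gene are given because these were the members raised by p53 loss (RefSeq, GRCm38.p6, 5′ to 3′, chr19:42202253-42202502 on the minus strand for Sfrp5 and chr3:83766071-83766320 on the plus strand for Sfrp2), with GC boxes (GGGCGG, either strand) in capitals.
Sfrp5: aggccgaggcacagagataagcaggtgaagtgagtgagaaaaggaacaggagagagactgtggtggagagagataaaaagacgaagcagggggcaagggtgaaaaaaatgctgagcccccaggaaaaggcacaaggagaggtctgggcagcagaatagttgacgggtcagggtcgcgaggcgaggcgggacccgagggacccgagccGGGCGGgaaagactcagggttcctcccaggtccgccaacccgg
Sfrp2: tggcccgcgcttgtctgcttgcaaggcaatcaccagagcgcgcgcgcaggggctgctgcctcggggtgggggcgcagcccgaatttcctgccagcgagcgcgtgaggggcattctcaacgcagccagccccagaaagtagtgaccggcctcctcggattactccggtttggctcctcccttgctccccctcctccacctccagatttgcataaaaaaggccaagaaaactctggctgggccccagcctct
The Sfrp5 window holds 1 GC box and the Sfrp2 window 0, and neither holds the TCF core CTTTGA on either strand. GGGCGG occurred in 32.7% of 32851 windows of this length and in 70.4% of the 27 windows of tested members, and CTTTGA in 13.8% and 7.41%. These 27 windows belong to 21 of the 35 tested members, and CTTTGA was in 2 of the windows. A match of letters is not a binding site.

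Fzd3 and Fzd5 were the receptors that fell with p53 loss in NPCs alone. Fzd3, with the values above, had a log2 difference of -0.64 ± 0.18 alone (adjusted p = 0.0497, edgeR) and -0.07 ± 0.18 in co-culture. Fzd5 had 30.4, 25.2 and 20.3 CPM in p53-/- NPCs alone, against 52.2, 37.5 and 31.5 CPM in p53+/+ NPCs alone (-0.67 ± 0.18, adjusted p = 0.0480), and 25.1 ± 1.72 against 28.5 ± 1.37 CPM in co-culture (-0.18, adjusted p = 0.570). The p53-/- and p53+/+ libraries of NPCs alone did not overlap for either receptor. Of 15 leave-out fits the Fzd3 call was kept in 5 and the Fzd5 call in 4, and without the p53+/+ alone library of 17_9 the differences were -0.47 and -0.44. Nkd1, a feedback inhibitor that binds Dishevelled, had 12.2, 25.2 and 21.4 CPM in p53-/- NPCs alone against 5.12, 14.2 and 15.5 CPM in p53+/+ NPCs alone, and 22.3, 28.3 and 22.0 CPM in p53-/- co-culture against 9.37, 15.5 and 16.4 CPM in p53+/+ co-culture. Nkd1 was higher in p53-/- in every experiment and culture, but did not pass in edgeR without the block. Its log2 difference there was 0.75 alone and 0.81 in co-culture (adjusted p = 0.230 and 0.178). It passed with the replicate block (0.78 alone and 0.88 in co-culture, adjusted p = 0.0320 and 0.0151). With the block, Fzd10 was also lower (-0.67, adjusted p = 0.0138) and Tcf7l1 higher (0.54, adjusted p = 0.0213) in p53-/- NPCs alone, and Fzd7 higher in p53-/- co-culture (0.37, adjusted p = 0.0290). Without the block these did not pass in edgeR (adjusted p = 0.166 for Fzd10, 0.145 for Tcf7l1 and 0.115 for Fzd7).

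No member passed the edgeR test of whether co-culture acted differently in p53-/- than in p53+/+ NPCs. Over all genes 0% were higher and 0.0364% lower in that test. An unadjusted p under 0.05 was found for 2 of 35 members, beside 976 of all 13745 genes tested. Sfrp5, whose co-culture difference was 1.42 in p53-/- and 3.80 in p53+/+, had an interaction of -2.39 ± 0.76 (adjusted p = 0.666, or 0.0888 with the replicate block). DESeq2 called 0 members and, with the replicate block, 1, which was Sfrp5 (-2.40, adjusted p = 0.0172). Over the 24108 genes listed, DESeq2 called 6 higher and 13 lower, and with the block 197 higher and 67 lower. Fzd3, at 0.56 in p53-/- and -0.02 in p53+/+, had an interaction of 0.57 ± 0.25 (adjusted p = 0.700).

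Axin2, Fzd9 and Wnt9a were picked after their values were seen, because the NPCs alone of experiment 17_9 stood apart in them. Axin2, the most used target of the beta-catenin branch, had 48.4, 45.1 and 45.5 CPM in p53-/- co-culture against 20.0, 44.0 and 35.1 CPM in p53-/- NPCs alone. In p53+/+ NPCs it had 35.1, 36.4 and 38.7 CPM in co-culture against 18.9, 55.0 and 39.6 CPM alone. The lowest libraries of all 12 are thus the 2 alone libraries of 17_9, in both genotypes. Fzd9 was lowest there too, at 10.1 CPM in p53-/- and 9.31 CPM in p53+/+ NPCs alone, against 19.4 to 33.1 CPM in the other libraries. Wnt9a was highest there, at 2.71 CPM in p53-/- and 7.50 CPM in p53+/+, against 0.388 to 1.69 CPM elsewhere. In these libraries Acta2 reached 765 CPM (p53-/-) and 432 CPM (p53+/+), and the part of that difference in the Wnt values was not tested. With both left out, a choice made after seeing the data, Axin2 had a co-culture difference of 0.22 in p53-/- (adjusted p = 0.288) and -0.37 in p53+/+ (adjusted p = 0.0755), where all libraries gave 0.49 and -0.04. Fzd9 was then at 0.07 in p53-/- (adjusted p = 0.723) and passed in p53+/+ (0.56, adjusted p = 0.00826), where all libraries gave 0.41 and 0.84. Wnt9a was at 0.26 (adjusted p = 0.682) and -0.19 (adjusted p = 0.718), where all libraries gave -0.90 and -1.51 (edgeR).

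**Figure D4:**
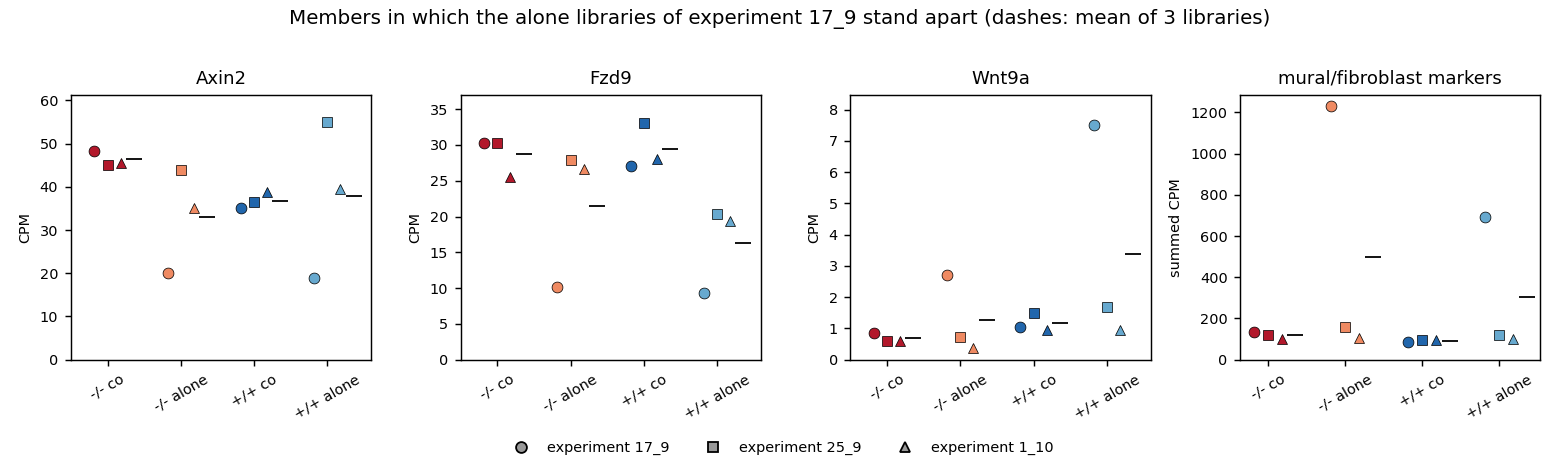
CPM of Axin2, Fzd9 and Wnt9a and the summed CPM of 13 mural and fibroblast markers (vertical axes, from 0) by library, with marker shape giving the experiment and dashes the mean of 3 libraries. The circles of NPCs alone (experiment 17_9) are the lowest for Axin2 and Fzd9 and the highest for Wnt9a and the marker sum, which reach 1229 CPM in p53-/- and 693 CPM in p53+/+.

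Of 100 further genes of the pathway, 83 were tested. With co-culture 14 rose and 14 fell in p53-/- NPCs, 16.9% each way beside 18.8% higher and 17.0% lower over all genes. In p53+/+ NPCs 16 rose and 18 fell, 19.3% and 21.7% beside 21.2% and 18.3%, so these shares were near those of all genes. Of 8 tested further secreted or membrane inhibitors, 3 rose and 1 fell in each genotype. Frzb, a secreted Wnt-binding protein, rose by log2 1.19 in p53-/- and 1.55 in p53+/+, Notum, a secreted Wnt deacylase, by 1.78 and 1.58, and Kremen1, a membrane receptor of Dkk proteins, by 0.73 and 0.65. Sostdc1, a secreted inhibitor, fell by 2.48 in p53-/- and by 3.56 in p53+/+. Levels of Sostdc1 were low, at 0.173 CPM in p53-/- co-culture against 0.989 CPM alone, and 0.112 against 1.46 CPM in p53+/+. Notum was low too, at 0.751 CPM in p53-/- co-culture against 0.212 CPM alone, and 1.25 against 0.414 CPM in p53+/+. In experiment 1_10 the p53+/+ log2 ratio of Notum was 0.17. Porcn, which lipidates Wnts, rose (0.47 in p53-/- and 0.71 in p53+/+), and Rspo3, a ligand of Lgr receptors, rose in p53+/+ (1.64, at 0.699 against 0.230 CPM). The receptor Ror2, through which Wnt5a acts, was lower (-0.75 and -1.34), as was the glypican Gpc4 (-1.78 and -2.22).

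Among transducers Dact1, a Dishevelled partner, fell (-1.10 in p53-/- and -1.31 in p53+/+) and Apc2 rose (1.35 and 1.01). In p53+/+ Dact2 rose (1.87) and Amer1 fell (-0.67). Of nuclear cofactors Ctbp2 (-0.67 in p53-/- and -0.99 in p53+/+) and Tle3 (-0.44 and -0.70), both co-repressors, fell, while Tle1 rose (0.30 and 0.49). In the planar cell polarity arm Daam2 (1.10 in p53-/- and 1.06 in p53+/+), Celsr2 (0.98 and 0.89) and Prickle2 (0.99 and 0.76) rose and Daam1 fell in p53+/+ (-0.45). Among other known targets, the cell-cycle genes Ccnd1 (-0.60 in p53-/- and -1.07 in p53+/+) and Ccnd2 (-0.88 and -1.17) fell in both genotypes, and Id2 (1.52) and Sox9 (0.94), a glial and stem cell factor, rose in p53+/+. Loss of p53 changed 6 of the 83 in NPCs alone, 3.61% each way beside 2.02% higher and 4.27% lower over all genes. Named here after their values were seen, Draxin (1.11) and Apcdd1 (0.85), both inhibitors of the pathway, and Tle4 (0.46) rose, and Fst (-1.43), Ccnd2 (-0.73) and Daam2 (-0.54) fell. In co-culture it changed 4, 3.61% higher and 1.20% lower beside 3.24% and 4.93%: Celsr3 (1.16), Draxin (1.15) and Tle4 (0.43) rose and Daam2 (-0.50) fell.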

How the data were processed

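RNA-seq libraries (TruSeq stranded mRNA, paired reads of 100 bases) were made from 12 NPC cultures in 3 experiments. Per the labels and methods, the authors aligned reads to mm9 with TopHat2 2.0.11 and deposited raw counts per gene from HTSeq 0.6.1. The strand setting is not given in the sources used here, nor is the annotation version, so overlapping and antisense genes are uncertain. The members and lists were chosen with earlier results of these data known.

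Counts were tested with edgeR 4.0.16 (R 4.3.3): TMM, filterByExpr, glmQLFit and glmQLFTest on all 12 libraries with 1 mean per group, and Benjamini-Hochberg adjustment over the 13745 genes tested, with a call at an adjusted p under 0.05. SE was the log2 fold change divided by the root of F. The 5 comparisons were co-culture in each genotype, p53 loss in each culture, and their interaction. Per-library values are given for members called with a log2 change of at least 1, or called for p53 loss or the interaction, group means for other called members, and of the further pathway genes at most 4 called per role, by size of change with co-culture in p53+/+.

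The numbers in the column headers were taken as experiments and used to pair libraries. Same-numbered libraries deviated together (18 pairs, r of 0.128 to 0.618; different numbers, 36 pairs, r of -0.608 to 0.241), so a fit with experiment as a replicate block is given where it changed a call. Which repeat number of the labels is which experiment is not stated. No pair of libraries of a group was a copy: 12 pairs differed by 13.3 to 62.6 times the counting variance. Whether the 3 experiments used separate animals is not stated, and the p-values measure the spread between these libraries. Other scalings, filters, a threshold of 0.01, fits on only the groups compared, DESeq2 1.42.0 and leaving out libraries were tried, and the scripts were tested on simulated data.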

Additional observations from a re-analysis of the deposited data

Results flagged for a closer look

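Differences whose 3 experiments all pointed one way in one setting and all the other way in the other were looked for among the tested members, and 4 were found. The same rule was not applied to all genes, so whether 4 is more than in other genes is not known. None passed the test of the difference itself (edgeR interaction, n = 3 libraries in each group). Fzd10, a Frizzled of neural progenitors, had a co-culture difference of 0.47 in p53-/- and -0.32 in p53+/+ on the log2 scale, an interaction of 0.78 (adjusted p = 0.706). It had 17.9 ± 5.25 CPM in p53-/- co-culture and 12.9 ± 4.11 CPM in p53-/- NPCs alone, and 16.2 ± 1.64 CPM in p53+/+ co-culture and 20.2 ± 4.62 CPM in p53+/+ NPCs alone. Lgr5, a stem cell marker of several epithelia, was at 0.52 in p53-/- and -0.79 in p53+/+ (1.31, adjusted p = 0.706), at levels of at most 0.651 CPM in any library.

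Lrp6 and Tcf7l2 were opposite for p53 loss. Lrp6 was at 0.10 in co-culture and -0.31 in NPCs alone (0.41, adjusted p = 0.747), and Tcf7l2 at 0.32 in co-culture and -0.11 in NPCs alone (0.43, adjusted p = 0.755).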

How the results depend on the processing

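Of 724 comparisons of a called member's log2 fold change with its value under another setting, 523 kept the call, 201 lost it and 0 changed sign. Members called numbered 11 (p53+/+ co-culture), 10 (p53-/- co-culture), 6 (p53 loss alone), 1 (p53 loss in co-culture) and 0 (interaction). With the replicate block, edgeR called 17, 14, 10, 5 and 0, and DESeq2 with the replicate block 17, 16, 10, 5 and 1. At a threshold of 0.01 the first 4 counts were 6, 3, 0 and 0. All genes then gave 1911 higher and 1376 lower in p53+/+ co-culture, and 1597 and 1116 in p53-/- co-culture. For p53 loss they gave 36 and 253 alone, and 91 and 239 in co-culture. With only the groups compared, p53 loss gave 0 alone and 3 in co-culture. For p53 loss in co-culture, library size alone as the scaling gave 0 and DESeq2 without the block 2. Over all genes the first called 624 higher and 555 lower, and the second 745 and 997. Leaving out 1 library or 1 experiment gave 4 to 13 (p53+/+ co-culture), 4 to 10 (p53-/- co-culture), 0 to 5 (p53 loss alone), 0 to 3 (p53 loss in co-culture) and 0 to 0 (interaction), with 4, 4, 0 and 0 when all libraries of experiment 25_9 were out, which leaves 2 per group. Without 25_9, calls over all genes also fell, to 1209 higher and 780 lower in p53+/+ co-culture and 1343 and 804 in p53-/- co-culture. They were 13 and 107 for p53 loss alone, and 2 and 40 in co-culture. Without the libraries of NPCs alone of experiment 17_9, chosen after seeing the data, the counts were 11, 7, 2, 3 and 0. All genes gave 3061 higher and 2495 lower in p53+/+ co-culture and 2523 and 2096 in p53-/- co-culture in that fit. For p53 loss they gave 121 and 321 alone, and 761 and 1041 in co-culture. Leaving out experiment 17_9 or 1_10 also leaves 2 libraries per group. In p53+/+ co-culture all genes gave 2414 higher and 1602 lower without 17_9, and 2356 and 2268 without 1_10. The causes of the changes between settings were not tested. No scaling moved the median of all genes by over 0.1 (log2). Counts of 9 or fewer per library keep 12 ligands untested, and Sfrp5 rests on 1 to 7 counts per library in p53+/+ NPCs alone.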
